A study of Mus musculus with 11 samples.

Results

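Iron storage and transport was followed through 10 genes, chosen by name: the ferritin chains Fth1 and Ftl1, the ferritin cargo receptor Ncoa4, the exporter Slc40a1, the importers Slc11a1, Slc11a2 and Tfrc, the heme oxygenase Hmox1, and the iron regulatory proteins Aco1 and Ireb2. Each name matched 1 of the 55401 rows of the deposited count table. All 10 were among the 20390 genes with enough counts to be tested. The RNA came from microglia, the resident macrophages of the brain, sorted as live cells positive for CD11b and CD45 from C57BL/6 mice of 9 to 10 months. Every mouse carried the NLGF alleles, a mutant App knock-in that deposits amyloid, so no group was without amyloid. The control genotype, NLGF with no further deletion, had 3 libraries. Inpp5d+/-;NLGF also had 3, Tyrobp-/-;NLGF had 2, and 3 came from mice with both changes (Tyrobp-/-;Inpp5d+/-;NLGF), named compound mutants here. Tyrobp encodes DAP12, the adaptor through which the receptor TREM2 signals, and Inpp5d encodes the phosphatase SHIP1. The labels name no cell-restricted driver for either allele and do not say how many animals stand behind a library, so each p value rests on the spread among libraries, which may be technical.

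Iron that enters a macrophage by endocytosis of transferrin through the transferrin receptor (Tfrc), or by phagocytosis, leaves the vesicle through the metal transporters NRAMP1 (Slc11a1) and DMT1 (Slc11a2). Surplus iron is stored in ferritin, a shell of heavy (Fth1) and light (Ftl1) chains, and NCOA4 brings ferritin to the lysosome for its release. Ferroportin (Slc40a1) is the only known cellular iron exporter, and heme oxygenase-1 (Hmox1) frees iron from heme. The iron regulatory proteins IRP1 (Aco1) and IRP2 (Ireb2) bind a stem-loop, the iron-responsive element, in the untranslated regions (UTRs) of iron gene transcripts when iron is low. In a 5′ UTR this binding blocks translation, and in the 3′ UTR of Tfrc it stabilises the transcript. Ferritin-rich microglia are well known around amyloid plaques. Read counts measure transcripts, so a block of translation is not seen in them.

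The stem-loops are shown first because they are sequences through which iron acts on some of the members. The motif searched, on the transcript strand only, is the canonical iron-responsive element: an unpaired C, an upper stem of 5 base pairs with G-T pairs allowed, and a loop of 6 bases that begins with CAGTG and does not end in G. It was found in the 5′ UTR of Fth1, Ftl1 and Slc40a1 and 4 times in the 3′ UTR of Tfrc, in coding transcripts of GENCODE M21 on GRCm38. Of all genes with a 5′ UTR, 23 of 20882 (0.11%) held it there, and 100 of 20993 (0.476%) held it in a 3′ UTR. In the UTRs of the other 6 members this motif was not found. A stem-loop with a bulge or a mismatch in the upper stem would be missed by this search, so these members may hold other forms. Each window is printed 5′ to 3′ with 6 flanking bases on each side and the loop in capitals.
Fth1, 5′ UTR, chr19:9982732-9982760, plus strand: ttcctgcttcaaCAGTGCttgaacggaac
Ftl1, 5′ UTR, chr7:45459779-45459807, minus strand: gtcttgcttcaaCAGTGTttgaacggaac
Slc40a1, 5′ UTR, chr1:45925465-45925493, minus strand: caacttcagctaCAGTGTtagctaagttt
Tfrc, 3′ UTR, chr16:32631219-32631247, plus strand: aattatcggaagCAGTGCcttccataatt
Tfrc, 3′ UTR, chr16:32631598-32631626, plus strand: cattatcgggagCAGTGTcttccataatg
Tfrc, 3′ UTR, chr16:32631663-32631691, plus strand: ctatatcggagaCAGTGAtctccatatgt
Tfrc, 3′ UTR, chr16:32631710-32631738, plus strand: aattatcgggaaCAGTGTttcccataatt

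Library totals ran from 29490567 to 66637052 counts, and the members' counts from 277 (Tfrc in Inpp5d+/-;NLGF replicate 2) to 317795 (Fth1 in NLGF replicate 1). Levels are given as CPM, each gene's counts relative to a library size scaled by the TMM method. The targeted gene Tyrobp ran from 1952 to 2560 CPM in the 6 libraries without the deletion and from 3.22 to 8.94 CPM in the 5 Tyrobp-/- libraries. Inpp5d overlapped between NLGF (205 to 436 CPM) and Inpp5d+/-;NLGF (191 to 280 CPM), and was at 447 and 449 CPM in Tyrobp-/-;NLGF against 190 to 260 CPM in the compound mutants. The 10 microglia markers summed to 44828 to 54447 CPM in libraries with Tyrobp and 47425 to 51224 CPM without it, and none was at 0. The 12 neutrophil markers summed to 0.657 to 227 CPM in the libraries with Tyrobp. In the Tyrobp-/-;NLGF libraries the sum was 18436 and 4220 CPM, and in compound replicates 1, 2 and 3 it was 242, 9527 and 2200 CPM. Libraries lacking Tyrobp carry lower title numbers than all others, so handling or litter and Tyrobp genotype cannot be told apart.

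The levels of the 10 genes spanned a wide range. Per kilobase of the principal GENCODE M21 transcript, NLGF microglia held 3132 ± 326 CPM of Fth1 and 2423 ± 249 of Ftl1 (SD, n = 3). Next came Slc11a1 at 439 ± 18 CPM per kilobase, Slc40a1 at 69.4 ± 6, Ncoa4 at 40.5 ± 3.73 and Hmox1 at 37.9 ± 7.94. The lowest were Slc11a2 at 18.7 ± 1.59, Aco1 at 12.2 ± 0.291, Tfrc at 4.9 ± 1.52 and Ireb2 at 3.64 ± 0.307 CPM per kilobase. The ranges of Ncoa4 and Hmox1, and of Tfrc and Ireb2, were neighbours within about 1 SD of each other. Among tested genes, 99.9% had a lower mean CPM than Fth1 and 99.8% a lower one than Ftl1. The order of the ferritin chains depends on the length used: per kilobase of merged exons Ftl1 was at 1750 ± 180 CPM and Fth1 at 1349 ± 140.

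**Figure D1:**
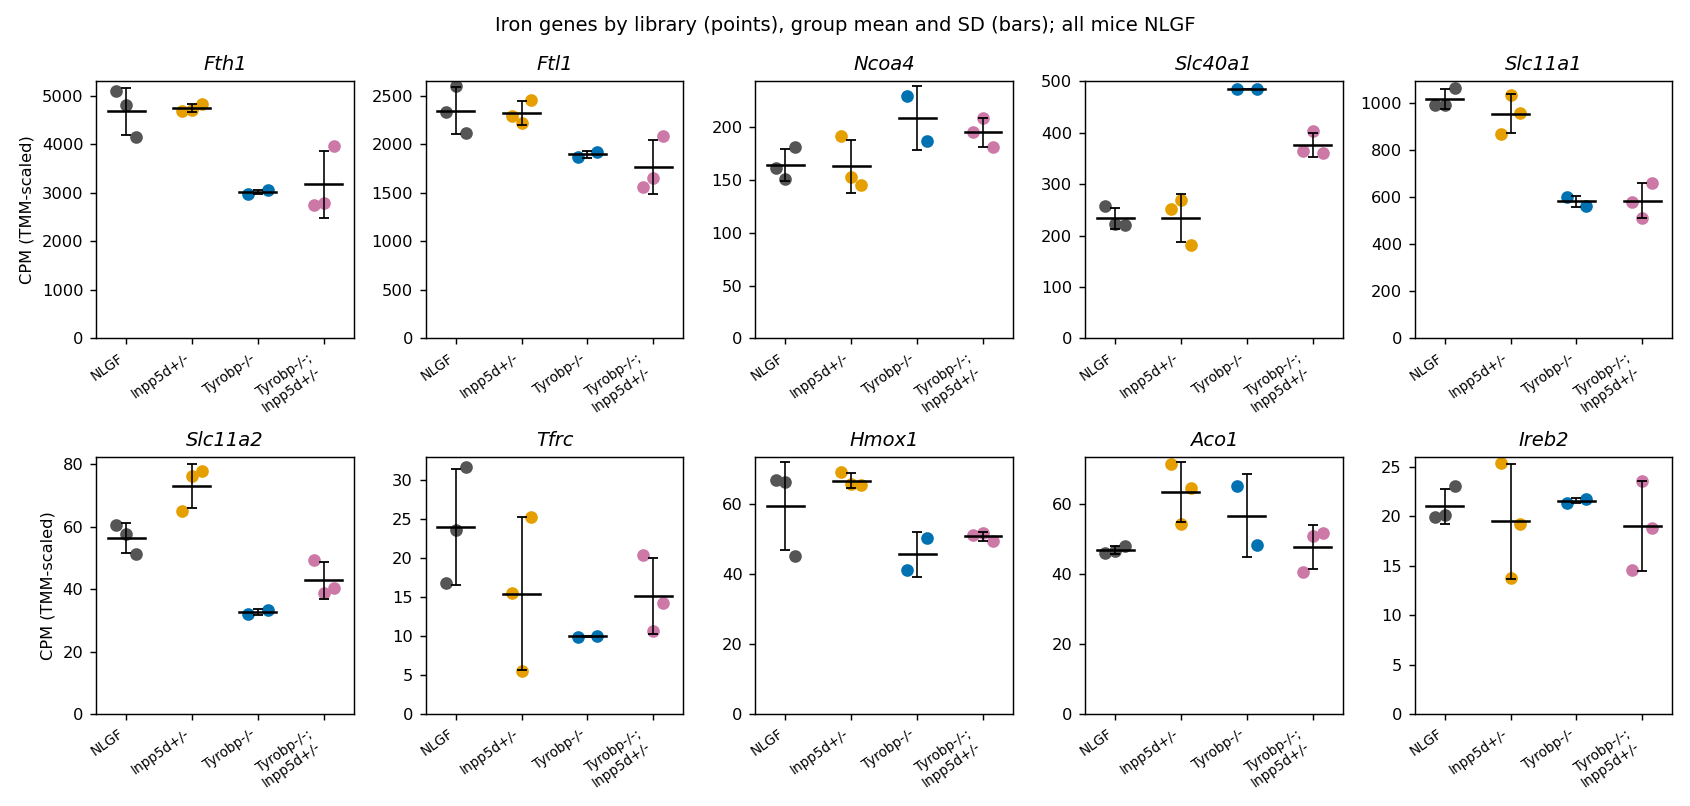
Levels of the 10 iron genes in CPM on TMM-scaled library sizes (vertical axes, each from 0) by genotype. Each point is 1 library, the wide bar is the group mean and the whiskers are 1 SD. For Fth1, Ftl1, Slc40a1, Slc11a1 and Slc11a2, no library of either Tyrobp-/- group lies within the range of the 6 libraries with Tyrobp.

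Transcripts of both ferritin chains were lower without Tyrobp. Whether the chains differ in the size of the change was not tested, and the 95% intervals of their log2 fold changes overlap (-0.81 to -0.39 for Fth1, -0.54 to -0.18 for Ftl1). Fth1 (ENSMUSG00000024661.7, chromosome 19, 9980598 to 9985098, GRCm38) was at 5094, 4802 and 4143 CPM in NLGF and at 4684, 4695 and 4834 CPM in Inpp5d+/-;NLGF. It was at 2982 and 3048 CPM in Tyrobp-/-;NLGF and at 2753, 2789 and 3969 CPM in the compound mutants. Compound replicate 3 was the highest of the Tyrobp-/- libraries and still below NLGF replicate 3, the lowest of the others. In an additive model of both genotypes over all 11 libraries, called the pooled Tyrobp effect here, the log2 fold change of Fth1 with Tyrobp loss was -0.60 (SE 0.0954, adjusted p = 0.00532, edgeR quasi-likelihood test with Benjamini-Hochberg adjustment over all genes). The heavy chain carries the ferroxidase site that oxidises iron for storage.

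Ftl1 (ENSMUSG00000050708.16, chromosome 7, 45457944 to 45459884) encodes the light chain, which aids the formation of the iron core. It was at 2330, 2594 and 2113 CPM in NLGF and at 2287, 2222 and 2459 CPM in Inpp5d+/-;NLGF. It was at 1872 and 1923 CPM in Tyrobp-/-;NLGF and at 1556, 1653 and 2080 CPM in the compound mutants. With Tyrobp loss its pooled log2 fold change was -0.36 (SE 0.0815, adjusted p = 0.0317, edgeR), the smallest of the called members. This call was kept without NLGF replicate 3 or without compound replicate 3 and lost when any 1 of the other 9 libraries was left out, with log2 fold changes from -0.42 to -0.31 over the 11 fits. Ftl1 did not pass in Tyrobp-/-;NLGF against NLGF (-0.31, adjusted p = 0.368, edgeR). Nor did it pass in the compound mutant against Inpp5d+/-;NLGF (-0.40, adjusted p = 0.167) or against NLGF (-0.41, adjusted p = 0.158). Reads of Ftl1 are also harder to assign. Rows named as Ftl pseudogenes held 9.01% to 10.5% of the Ftl reads in every library, against at most 0.0677% for Fth pseudogenes. The Ftl1 exons also contain the miRNA gene Gm22133, whose row held 35.3% to 38.2% as many counts as Ftl1. They share 355 bases with Gm10252 on the opposite strand, whose row held 43.5% to 46.2% as many, and the treatment of shared reads is not given in the sources used here. Adding the pseudogene rows to the ferritin rows left the Ftl1 log2 fold change at -0.36.

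The ratio of the chains is given as a description. There were 2.02 ± 0.12 Fth1 counts per Ftl1 count in the 6 libraries with Tyrobp and 1.71 ± 0.135 in the 5 Tyrobp-/- libraries. The ratio ran from 1.85 to 2.19 in the first and from 1.59 to 1.91 in the second, so the ranges overlapped, and no test was made on it. Compound replicate 3 gave the 1.91 and NLGF replicate 2 the 1.85. Ncoa4 (ENSMUSG00000056234.15, chromosome 14, 32159865 to 32179855) was at 162, 151 and 181 CPM in NLGF, 192, 153 and 145 in Inpp5d+/-;NLGF, 230 and 187 in Tyrobp-/-;NLGF, and 195, 209 and 182 in the compound mutants. Its ranges overlapped between Tyrobp genotypes because Inpp5d+/-;NLGF replicate 1 lay at 192 CPM. The pooled log2 fold change of 0.30 (SE 0.0956, adjusted p = 0.112) did not pass. DESeq2 called Ncoa4, as did edgeR without Inpp5d+/-;NLGF replicate 1.

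In the pooled fit over all 11 libraries, the exporter was the only member that edgeR called higher. Slc40a1 (ENSMUSG00000025993.10, chromosome 1, 45908068 to 45926523) was at 257, 223 and 221 CPM in NLGF and at 251, 269 and 181 CPM in Inpp5d+/-;NLGF. It was at 485 CPM in both Tyrobp-/-;NLGF libraries and at 365, 403 and 361 CPM in the compound mutants. Every Tyrobp-/- library was above every other library, and the Tyrobp-/-;NLGF libraries were above the compound mutants. The pooled log2 fold change was 0.85 (SE 0.113, adjusted p = 0.00213, edgeR), a 1.8-fold higher level. Slc40a1 and Slc11a1 lie on the chromosome of Inpp5d, 41.7 and 13.2 Mb from it, and Ftl1 lies on that of Tyrobp, 15 Mb away.

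Both divalent metal transporters fell. Slc11a1 (ENSMUSG00000026177.11, chromosome 1, 74375195 to 74386062) encodes NRAMP1, the phagosomal transporter known for host resistance to intracellular microbes. It was at 993, 992 and 1065 CPM in NLGF, 868, 1035 and 957 in Inpp5d+/-;NLGF, 599 and 563 in Tyrobp-/-;NLGF, and 580, 513 and 660 in the compound mutants. The gap between the lowest library with Tyrobp (868 CPM) and the highest without it (660 CPM) was wider than the range within the Tyrobp-/- libraries. The pooled log2 fold change was -0.75 (SE 0.0751, adjusted p = 0.000397, edgeR), the smallest p of the 10 genes. Slc11a2 (ENSMUSG00000023030.16, chromosome 15, 100387898 to 100425072) encodes DMT1, which moves iron out of endosomes. It was at 60.6, 57.7 and 51.2 CPM in NLGF and at 64.9, 76.2 and 77.9 in Inpp5d+/-;NLGF. It was at 31.9 and 33.5 CPM in Tyrobp-/-;NLGF and at 49.5, 38.7 and 40.2 in the compound mutants, where replicate 1 came close to NLGF replicate 3. Tyrobp loss gave a pooled log2 fold change of -0.78 (SE 0.0979, adjusted p = 0.00158, edgeR). Slc11a2 shares 402 bases of exon with Gm5475 on the opposite strand, whose row held 1.5% to 7.05% as many counts as Slc11a2.

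Set against each other, transcripts of the phagosomal importer and of the exporter moved further apart than those of either gene alone, as opposite changes must. Iron transport itself was not measured. There were 4.28 ± 0.689 Slc11a1 counts per Slc40a1 count in the libraries with Tyrobp (n = 6), from 3.45 to 5.29. In the Tyrobp-/- libraries the ratio was 1.42 ± 0.281 (n = 5), from 1.16 to 1.83. The ratio is built from 2 genes already called and is given as a description, with no test.

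The third importer did not resolve. Tfrc (ENSMUSG00000022797.16, chromosome 16, 32608920 to 32632794) was at 16.8, 23.5 and 31.6 CPM in NLGF and at 15.5, 5.57 and 25.2 CPM in Inpp5d+/-;NLGF. It was at 9.92 and 9.95 CPM in Tyrobp-/-;NLGF and at 20.3, 10.7 and 14.2 CPM in the compound mutants. Its SD was 46.2% of the mean in the 6 libraries with Tyrobp, the largest of the members, against 6.67% for Fth1 there. For Tfrc the pooled log2 fold change was -0.57 with a 95% interval from -1.46 to 0.32 (adjusted p = 0.522), so neither a large fall nor a small rise could be told from no difference.

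Hmox1 (ENSMUSG00000005413.8, chromosome 8, 75093621 to 75100589) was at 66.9, 66.3 and 45.0 CPM in NLGF and at 69.2, 65.6 and 65.3 CPM in Inpp5d+/-;NLGF. It was at 41.1 and 50.2 CPM in Tyrobp-/-;NLGF and at 51.1, 51.8 and 49.4 CPM in the compound mutants. NLGF replicate 3 lay among the Tyrobp-/- libraries, and the other 5 libraries with Tyrobp lay above all of them. The pooled log2 fold change was -0.39 (SE 0.113, adjusted p = 0.0813) and did not pass. Without NLGF replicate 3 it was -0.45 with an adjusted p of 0.0182, and DESeq2 also called it.

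The iron sensors showed no pooled difference beyond the spread. Ireb2 (ENSMUSG00000032293.8, chromosome 9, 54863789 to 54912530) ran from 13.7 to 25.4 CPM in the 6 libraries with Tyrobp and from 14.6 to 23.6 CPM in the 5 without. Its pooled log2 fold change was -0.00 with a 95% interval from -0.39 to 0.38 and changed sign under 8 of 22 alternatives. Aco1 (ENSMUSG00000028405.9, chromosome 4, 40143081 to 40198338) encodes a protein that is a cytosolic aconitase when it holds an iron-sulfur cluster and IRP1 when it does not. It ran from 45.9 to 71.2 CPM with Tyrobp and from 40.5 to 64.9 CPM without, and its pooled log2 fold change was -0.10 (95% interval -0.44 to 0.23, adjusted p = 0.801). These intervals leave room for changes of the size seen in Ftl1.

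In all, 5 of the 10 genes passed the adjusted p threshold of 0.05 for the pooled Tyrobp effect, 1 higher and 4 lower. Of all 20390 genes tested, 5.37% passed, 2.45% higher and 2.91% lower. The members are expressed more highly than most genes, and of the 7019 genes at or above the mean level of the lowest member (16.7 CPM) 11.4% passed. The libraries of both Tyrobp genotypes did not overlap for the same number, 1 higher and 4 lower, against 6.17% of all genes (2.7% higher, 3.47% lower). The median log2 fold change of the 10 members was -0.37, and that of all genes tested was 0.03. Calls of Fth1, Slc40a1, Slc11a1 and Slc11a2 were kept in each of the 11 fits that left out 1 library.

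**Figure D2:**
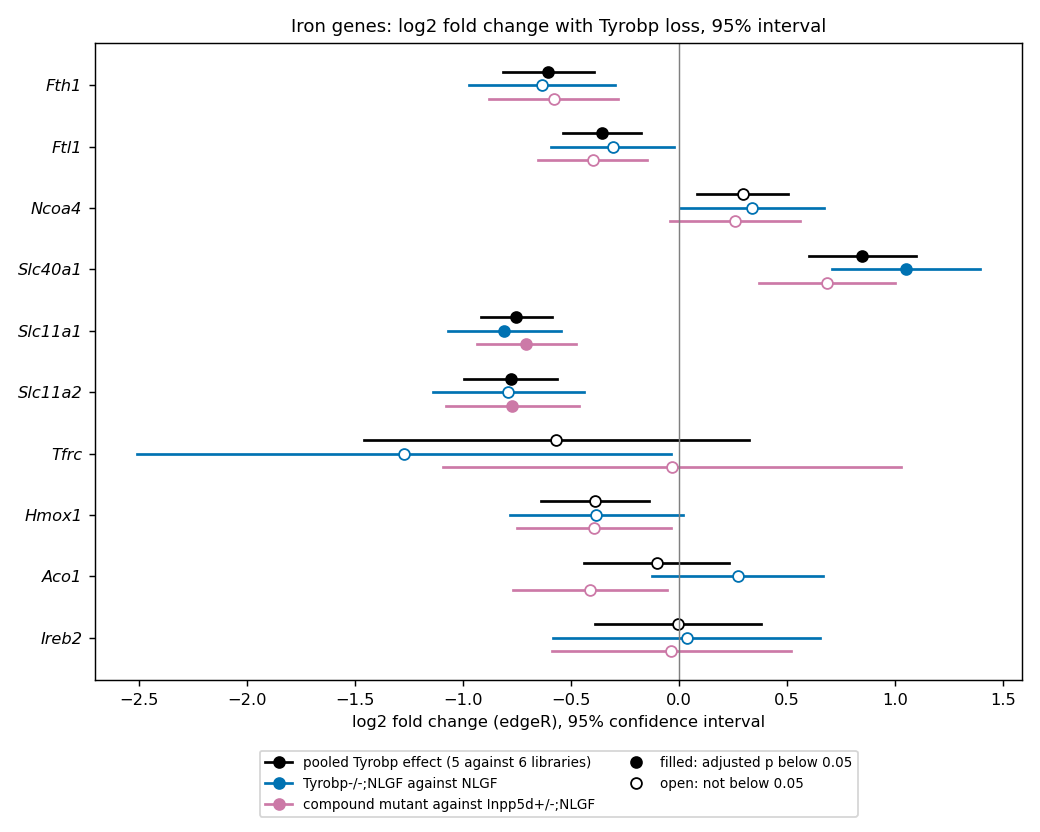
Log2 fold changes of the 10 iron genes with Tyrobp loss (horizontal axis) from edgeR, with 95% confidence intervals. Black is the pooled effect, blue Tyrobp-/-;NLGF against NLGF and pink the compound mutant against Inpp5d+/-;NLGF, with filled points where the adjusted p was below 0.05. The pooled interval excludes 0 for 7 genes, of which Hmox1 and Ncoa4 did not pass after adjustment. Of all genes tested, 19.4% had an unadjusted p below 0.05 for the pooled effect in edgeR.

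Fewer members passed in the comparisons of single genotypes, with 2 or 3 libraries a group. For Tyrobp-/-;NLGF against NLGF, 2 of 10 passed, Slc40a1 higher and Slc11a1 lower, against 0.863% of all genes (0.255% higher, 0.608% lower). Slc40a1 went from 233.9 ± 20.2 CPM (SD, n = 3) to 485 ± 0.452 (n = 2), with a fitted log2 ratio of 1.05 (SE 0.154, adjusted p = 0.015, edgeR). Slc11a1 went from 1016 ± 41.8 to 581 ± 25.4 CPM, with a fitted log2 ratio of -0.81 (SE 0.117, adjusted p = 0.0145, edgeR). Slc11a2 (-0.79, adjusted p = 0.0559) and Fth1 (-0.63, adjusted p = 0.1) did not pass. The libraries did not overlap for 8 members, 3 higher and 5 lower, against 29.6% of all genes (15.6% higher, 14% lower). Both calls were lost without Tyrobp-/-;NLGF replicate 1 and without replicate 2, fits in which the lone library of the group was assumed to vary like the others. The Slc40a1 call was lost as well without NLGF replicate 2 or 3. Over the 11 fits that left out 1 library its log2 fold change stayed between 1.02 and 1.12, and that of Slc11a1 between -0.85 and -0.76.

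In the compound mutant against Inpp5d+/-;NLGF, which compares other libraries but takes its spread from the same fit over all 11, Slc11a1 and Slc11a2 passed, both lower, against 0.897% of all genes (0.633% lower). Slc11a1 went from 953 ± 83.4 to 584 ± 73.5 CPM (fitted log2 ratio -0.71, SE 0.103, adjusted p = 0.0143, edgeR; n = 3 and 3). Slc11a2 went from 73 ± 7.04 to 42.8 ± 5.85 CPM (-0.77, SE 0.137, adjusted p = 0.0358, edgeR). Slc40a1 went from 233.8 ± 46.7 to 376.5 ± 23.1 CPM and did not pass (0.69, SE 0.14, adjusted p = 0.0601), and neither did Fth1 (-0.58, adjusted p = 0.0889). The libraries did not overlap for 1 higher and 6 lower members, against 9.36% and 9.22% of all genes. The Slc11a1 call was lost without Inpp5d+/-;NLGF replicate 2 or 3 or compound replicate 1. The Slc11a2 call was kept without NLGF replicate 1 or 3 or compound replicate 1 and lost without any other single library. Their log2 fold changes stayed between -0.80 and -0.62 and between -0.89 and -0.70. Fitted on the compared groups alone, neither passed, and for Tyrobp-/-;NLGF against NLGF such a fit called Slc40a1 only.

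Against NLGF, a control group shared with the first comparison, the compound mutant had 1 member called, Slc11a1 at -0.80 (SE 0.103, adjusted p = 0.008, edgeR), against 0.873% of all genes. The libraries did not overlap for 2 higher and 4 lower members, against 9.04% and 8.92% of all genes. The Slc11a1 call was kept without each library in turn and lost when only the compared groups were fitted. Slc40a1 was at 0.69 (adjusted p = 0.0619) and Slc11a2 at -0.40 (adjusted p = 0.251), where Tyrobp-/-;NLGF against the same NLGF libraries gave 1.05 and -0.79.

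The neutrophil markers stood beside these differences. On the mean log2(CPM + 0.5) of the 12 markers, the 6 libraries with Tyrobp ran from -0.87 to 2.13, Tyrobp-/-;NLGF replicates 1 and 2 were at 8.20 and 5.44, and compound replicates 1, 2 and 3 at 1.84, 7.11 and 4.61. S100a8, an abundant neutrophil transcript, ran from 0.24 to 80.9 CPM with Tyrobp and from 94 to 6925 CPM without. For the pooled effect 10 of the 12 markers were called higher, as were 3 of 8 monocyte markers and 1 of 8 border-associated macrophage markers. Of the 10 microglia markers 2 were called higher, Tmem119 (3475 to 5426 CPM, mean with and without Tyrobp) and P2ry13 (2345 to 3077 CPM), and none lower. Called as well were 2 of 6 oligodendrocyte markers, both higher, and 2 of 4 endothelial markers, 1 higher and 1 lower. No astrocyte, neuron or erythroid marker was called. The monocyte sum ran from 11.4 to 58.9 CPM with Tyrobp and from 102 to 1915 CPM without, and the border-associated macrophage sum from 3.66 to 26.8 and from 27.7 to 130 CPM. Within the latter list F13a1 had a mean of 3.22 CPM with Tyrobp and 47 CPM without. No other marker of that list had a mean above 5.14 CPM in either Tyrobp genotype. The part of monocyte, border-associated macrophage, microglia, oligodendrocyte and endothelial markers in the iron gene results was not tested. Among markers that define these cells, the neutrophil gene Retnlg and the monocyte gene F10 were at 0 in every NLGF library. In every Inpp5d+/-;NLGF library the neutrophil gene Cxcr2 and the border-associated macrophage genes Cd163 and Lyve1 were at 0. No neutrophil, monocyte or border-associated macrophage marker was at 0 throughout a Tyrobp-/- group. The 7 erythroid markers in the table, of red cells that would carry heme iron, summed to at most 1 CPM in any library.

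Compound replicate 1 had the fewest of these markers among the Tyrobp-/- libraries. Its neutrophil mean of 1.84 lay within the range of the libraries with Tyrobp. Other measures lay above that range: its neutrophil sum was 242 against at most 227 CPM, S100a8 94 against at most 80.9, the monocyte sum 102 against at most 58.9 and the border-associated macrophage sum 27.7 against at most 26.8 CPM. Its Slc40a1 (365 CPM), Slc11a1 (580 CPM), Slc11a2 (49.5 CPM), Fth1 (2753 CPM) and Ftl1 (1556 CPM) all lay outside that range and on the side of the other Tyrobp-/- libraries. This follows from the choice of genes, the members whose libraries did not overlap between Tyrobp genotypes, and is no test of the part of neutrophils. Within the Tyrobp-/-;NLGF group, a neutrophil sum of 18436 against 4220 CPM went with 485 CPM of Slc40a1 in both libraries. It also went with 230 against 187 CPM of Ncoa4, 64.9 against 48.3 of Aco1 and 41.1 against 50.2 of Hmox1. Whether levels follow the neutrophil markers within a group was not tested.

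**Figure D3:**
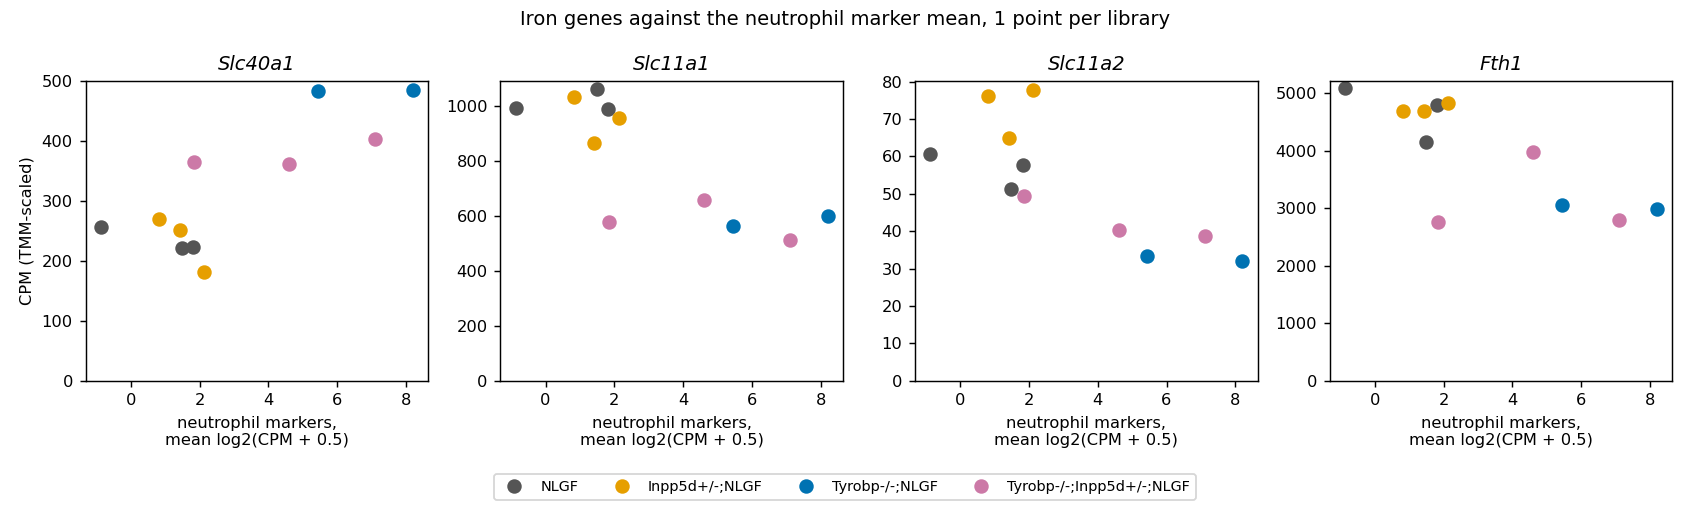
Levels of Slc40a1, Slc11a1, Slc11a2 and Fth1 in CPM (vertical axes, from 0) against the mean log2(CPM + 0.5) of 12 neutrophil markers (horizontal axis), 1 point per library, coloured by genotype. Compound replicate 1 sits at 1.84 on the horizontal axis, within the range of the libraries with Tyrobp on this measure, with 365 CPM of Slc40a1 and 580 CPM of Slc11a1.

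With the neutrophil mean as a covariate none of the 10 members was called in any of the 7 comparisons, while the pooled estimates of the called members kept their direction. Slc11a1 was at -0.67 (SE 0.131, adjusted p = 0.0792, edgeR) and Slc40a1 at 0.79 (SE 0.198, adjusted p = 0.167). Slc11a2 was at -0.59 (SE 0.153, adjusted p = 0.19), Fth1 at -0.55 (SE 0.172, adjusted p = 0.265) and Ftl1 at -0.44 (SE 0.143, adjusted p = 0.282). The standard errors were larger than without the covariate for all 5. Calls over all genes for the pooled effect also changed with the fit, from 1094 in the main fit to between 86 and 2194 over all alternatives. The loss of the member calls is thus not shown to be particular to the iron genes. Without the 2 libraries with the most S100a8 (Tyrobp-/-;NLGF replicate 1 and compound replicate 2), Slc40a1 (0.80, adjusted p = 0.0293), Slc11a1 (-0.71, adjusted p = 0.0078) and Slc11a2 (-0.72, adjusted p = 0.0284) stayed called for the pooled effect, and Fth1 (-0.54, adjusted p = 0.0612) and Ftl1 (-0.33, adjusted p = 0.189) did not. In bulk RNA a different number of cells of a type and a different amount of RNA per cell cannot be told apart.

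The Inpp5d genotype had no called member. For Inpp5d+/-;NLGF against NLGF, edgeR, DESeq2 and limma-voom each called 0 of 10, and edgeR called 0% of all genes. At an unadjusted p below 0.05 edgeR gave 2 of 10, against 4.66% of all genes. These were Slc11a2, at 73 ± 7.04 against 56.5 ± 4.81 CPM (estimate 0.37, SE 0.137, adjusted p = 0.952), and Aco1, at 63.3 ± 8.55 against 46.9 ± 1.11 CPM (0.43, SE 0.159, adjusted p = 0.952). For both, all 3 Inpp5d+/- libraries were above all 3 NLGF libraries, as in 3.64% of all genes, and no member was lower without overlap, against 3.97% (7.62% in either direction). The other 8 log2 fold changes lay between -0.64 (Tfrc) and 0.17 (Hmox1). The interval for Fth1 ran from -0.28 to 0.31 and that for Slc11a1 from -0.32 to 0.14.

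On the Tyrobp-/- background, the compound mutant against Tyrobp-/-;NLGF also had 0 of 10 members called by edgeR, DESeq2 and limma-voom, against 0.00981% of all genes with edgeR. The 2 members at an unadjusted p below 0.05 (4.08% of all genes) were both transporters. Slc40a1 was at 376.5 ± 23.1 against 485 ± 0.452 CPM (estimate -0.36, SE 0.155, adjusted p = 1) and Slc11a2 at 42.8 ± 5.85 against 32.7 ± 1.1 CPM (0.39, SE 0.154, adjusted p = 1). Neither gene overlapped between these libraries. With Tfrc (higher) they made 2 higher and 1 lower member without overlap, against 9.13% and 9.66% of all genes. The Slc11a2 estimates with the Inpp5d+/- genotype were thus 0.37 with Tyrobp and 0.39 without, neither called. The Tyrobp-/-;NLGF libraries in this comparison are those behind the Slc40a1 value above, so it is not a separate measurement.

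The interaction, which asks whether the Tyrobp effect differs with the Inpp5d genotype, was called for 0 of 10 members by edgeR, DESeq2 and limma-voom and for 0% of all genes by edgeR. Aco1 alone had an unadjusted p below 0.05, against 4.7% of all genes. Its difference of log2 fold changes was -0.68 (95% interval -1.22 to -0.15, adjusted p = 1), the Tyrobp effect being 0.27 without and -0.41 with the Inpp5d+/- genotype. For Slc40a1 the difference was -0.36 (-0.83 to 0.10), for Fth1 0.05 (-0.39 to 0.50), for Slc11a1 0.10 (-0.24 to 0.44) and for Slc11a2 0.02 (-0.44 to 0.48). These 4 intervals include differences as large as the pooled Ftl1 estimate.

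**Figure D4:**
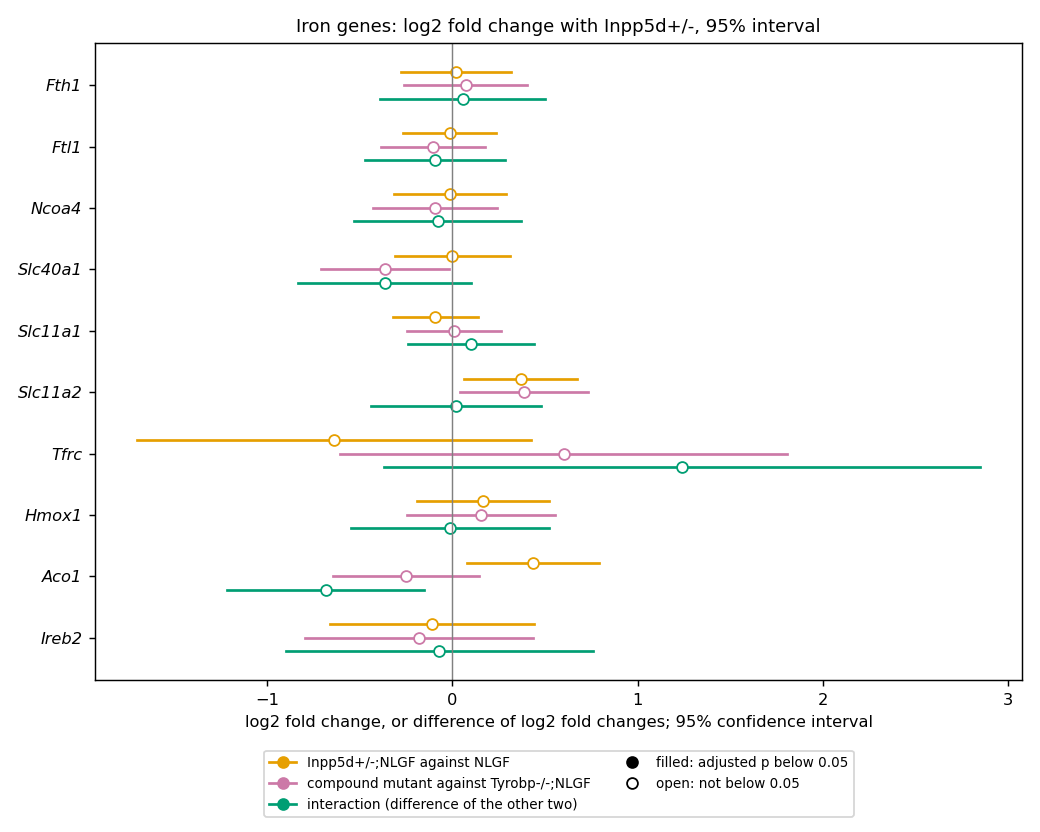
Log2 fold changes of the 10 iron genes with the Inpp5d+/- genotype, and the interaction as a difference of log2 fold changes (horizontal axis), from edgeR with 95% confidence intervals. Yellow is Inpp5d+/-;NLGF against NLGF, pink the compound mutant against Tyrobp-/-;NLGF and green the interaction. All points are open because no adjusted p was below 0.05, and the widest intervals are those of Tfrc.

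The wider machinery of iron was described through 7 further lists with 107 genes in the table, of which 95 were tested. For the pooled Tyrobp effect 8 of the 95 were called, 5 higher and 3 lower, beside the 5.37% of all genes given above. The smallest p was that of Hif1a, in the list of iron sensing, which encodes the oxygen-regulated transcription factor subunit. It ran from 428 to 520 CPM in the libraries with Tyrobp and was at 140 and 152 CPM in Tyrobp-/-;NLGF and at 160.3, 232.9 and 223 CPM in the compound mutants. Its log2 fold change was -1.42 (SE 0.128, adjusted p = 0.000206, edgeR). It was also called in the 3 comparisons of a Tyrobp-/- group with a group that has Tyrobp, and it stayed called for the pooled effect with the neutrophil covariate (-1.44, adjusted p = 0.0411) and without the 2 libraries with the most S100a8 (-1.43, adjusted p = 0.00251). Of the 3 single comparisons, Tyrobp-/-;NLGF against NLGF lost its Hif1a call with the covariate (adjusted p = 0.0688) and without those libraries (adjusted p = 0.0538), and the compound mutant against NLGF lost it with the covariate (adjusted p = 0.0525). Ciao3, of cytosolic iron-sulfur cluster delivery, was the other called gene of the 7 tested in this list, at 0.48 (adjusted p = 0.0334).

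Of 19 heme genes tested 3 were called. Blvrb, a biliverdin reductase, ran from 28.1 to 46.5 CPM with Tyrobp and from 65 to 80.2 CPM without (1.09, SE 0.15, adjusted p = 0.00255, edgeR). Hmox2, the constitutive heme oxygenase, was higher (0.47, adjusted p = 0.00883), unlike the uncalled -0.39 of Hmox1, and the heme and urate exporter gene Abcg2 was lower (-0.62, adjusted p = 0.0118). Blvrb was also called in the compound mutant against Inpp5d+/-;NLGF (1.15, adjusted p = 0.0408), a call lost under 12 of 23 alternatives, among them the neutrophil covariate (adjusted p = 0.23) and the fit without the 2 libraries with the most S100a8 (adjusted p = 0.204). Blvrb lies on chromosome 7, 2.95 Mb from Tyrobp, closer than any member. Without the 2 libraries with the most S100a8, Blvrb stayed called for the pooled effect (1.03, adjusted p = 0.0349). The other 6 called list genes apart from Hif1a did not, with adjusted p values from 0.0672 (Mcoln1) to 0.231 (Gsr). With the neutrophil covariate Blvrb was at 0.97 (adjusted p = 0.173), Hmox2 at 0.36 (adjusted p = 0.367) and Abcg2 at -0.71 (adjusted p = 0.223).

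Among 13 genes of uptake and movement between compartments 1 was called. Mcoln1, the lysosomal cation channel that releases iron, ran from 70.3 to 90.2 CPM with Tyrobp and from 48.6 to 59.7 CPM without (-0.56, SE 0.0907, adjusted p = 0.00574, edgeR). In the list of storage, export and the hepcidin axis 1 of 7 was called, Lcn2, a siderophore-binding protein of neutrophil granules, which ran from 0 to 6.83 CPM with Tyrobp. It was at 730.1 and 179 CPM in Tyrobp-/-;NLGF and at 14.9, 366 and 86.1 CPM in the compound mutants, the library order of S100a8. Its log2 fold change of 6.16 (adjusted p = 0.0173) was 1.25 with the neutrophil covariate (adjusted p = 0.686). Of 17 genes of the oxidative response 1 was called, the glutathione reductase gene Gsr at 0.86 (adjusted p = 0.0396), which was 0.13 with that covariate (adjusted p = 0.907).

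None of 20 iron-sulfur cluster assembly genes and none of 12 ferroptosis genes was called by edgeR for the pooled effect, with 4 and 3 at an unadjusted p below 0.05 against 19.4% of all genes. The smallest p values in these lists belonged to Fdxr (0.87, adjusted p = 0.104) and Nubp2 (0.33, adjusted p = 0.119), and to Acsl4 (-0.30, adjusted p = 0.13) and Lpcat3 (0.23, adjusted p = 0.172). DESeq2 called Fdxr and Nubp2 at the same threshold. List medians ranged from -0.04 (uptake and movement) to 0.13 (storage and export), near the median of 0.03 of all genes. None of these 7 lists had a called gene in Inpp5d+/-;NLGF against NLGF, in the compound mutant against Tyrobp-/-;NLGF or in the interaction.

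**Figure D5:**
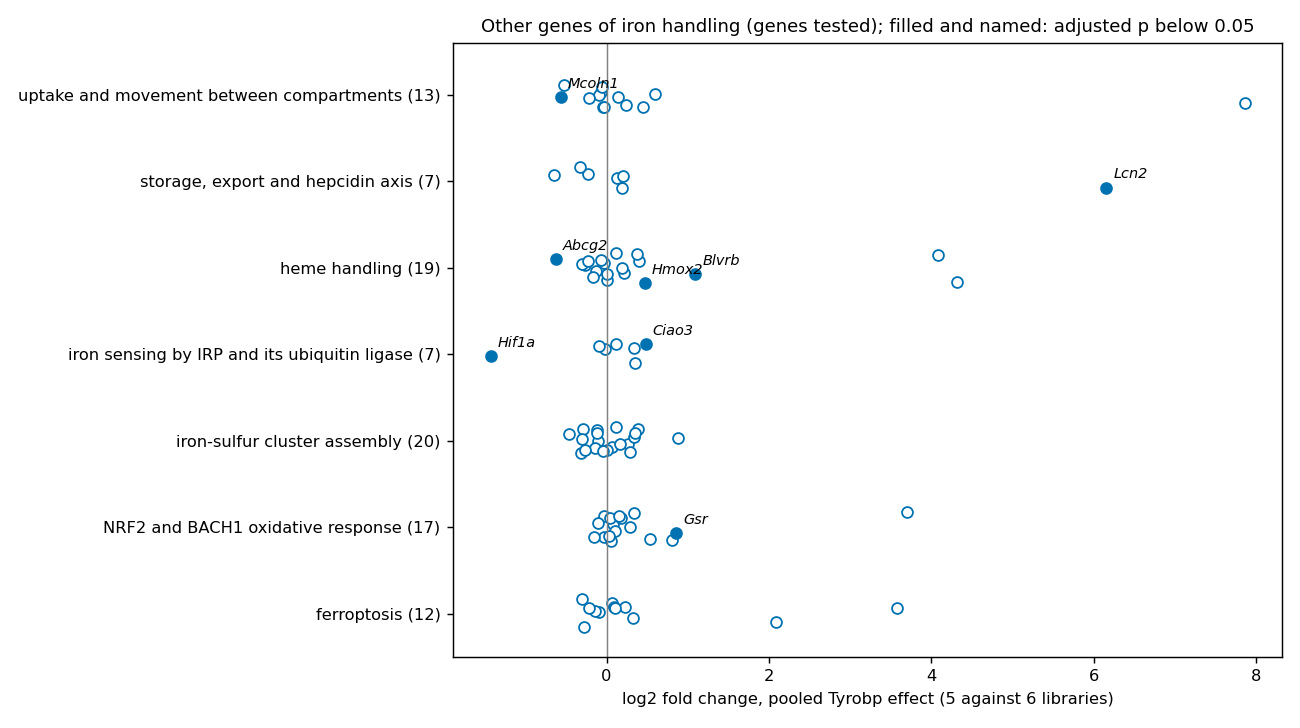
Log2 fold changes for the pooled Tyrobp effect (horizontal axis) of 95 tested genes in 7 iron lists (vertical axis, with the number tested; vertical jitter carries no meaning). Filled and named points had an adjusted p below 0.05. The open points above 2 are genes whose mean was under 4 CPM in both Tyrobp genotypes, so their fold changes rest on low levels.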

How the data were processed

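The authors deposited 1 table of raw read counts per gene for 11 RNA-seq libraries, aligned and counted with STAR 2.7.3a and featureCounts 1.6.4 on GRCm38.p6 and mm10, per the submitters' processing notes. For the annotation release, strand setting and shared reads, nothing was given in the sources used here. Of the row identifiers, 54349 of 55401 matched GENCODE M21, from which positions, transcript lengths and UTR sequences were taken. Counts were filtered with filterByExpr (minimum count 10, minimum total 15), scaled by TMM and fitted with edgeR 4.0.16 (R 4.3.3), 1 coefficient per genotype over all 11 libraries. The pooled Tyrobp effect came from an additive model of both genotypes. P values were adjusted by Benjamini-Hochberg over all 20390 genes, and an adjusted p below 0.05 was called. SE is the absolute log2 fold change divided by the square root of F, and intervals are at 95%. edgeR's quasi-likelihood test was used in its older (legacy) form, and its current form was run as an alternative. The fitting function was run on simulated counts with planted changes and without admixed cells, which is no check of the results above.

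The 10 genes are always named. From each other iron list, up to 4 called genes with the smallest p in each of the 7 comparisons are named, or the 2 with the smallest p for the pooled effect where a list has none called. Tyrobp, Inpp5d and S100a8 served as checks. Genes, lists and alternatives were chosen with earlier results of these data known. Alternatives were other scalings and filters, DESeq2 1.42.0, limma-voom (limma 3.58.1), 1 surrogate variable (sva 3.50.0), a neutrophil covariate, merged pseudogene rows and left-out libraries. Of the listed names, 4 were absent from the table (Hfe2, Skp1, Narfl and the erythroid marker Ahsp).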

Additional observations from a re-analysis of the deposited data

How the results depend on the processing

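For the pooled Tyrobp effect 5 iron genes were called, and 7 with DESeq2. There were 0 once the neutrophil marker mean was a covariate and 3 when the 2 libraries highest in S100a8 were omitted. With 1 library left out the number was 4 to 6. In Tyrobp-/-;NLGF against NLGF 2 were called, against 4 with DESeq2, 1 with only the compared groups, 0 with the covariate, 0 without the S100a8 libraries and 0 to 3 with 1 library left out. In the compound mutant against Inpp5d+/-;NLGF 2 were called, against 5 with DESeq2, 4 at a threshold of 0.1, 0 with the compared groups, 0 with the covariate, 0 without the S100a8 libraries and 0 to 3 with 1 library left out. Against NLGF the compound mutant had 1. This became 2 with the stricter filter, with limma-voom, at the threshold of 0.1 and with the current quasi-likelihood method of edgeR, which was chosen after seeing the data. It became 3 with 1 surrogate variable, 4 with DESeq2, 0 with the compared groups, 0 with the covariate, 0 without the S100a8 libraries, and 1 to 3 with 1 library left out. The cause was not tested. Calls over all genes moved under these alternatives too, for the pooled effect from 86 to 2194 around 1094, with the other ranges given below. The member counts are therefore no result about the iron genes alone. The 3 comparisons of the Inpp5d genotype had 0 iron genes called under every alternative run.

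Estimates of members that were not called changed sign as follows. Ireb2 was 0.00434 (RLE scaling), 0.0044 (DESeq2), 0.0267 (limma-voom) and 0.00278 (1 surrogate variable) for the pooled effect, and -0.54 with the covariate in Tyrobp-/-;NLGF against NLGF. Aco1 was -0.18 with the covariate in that comparison, and for the compound mutant against NLGF -0.10 (1 surrogate variable), -0.26 (covariate) and -0.0211 (without the S100a8 libraries). Tfrc in the compound mutant against Inpp5d+/-;NLGF was 0.0907 (limma-voom), 0.165 (without the S100a8 libraries) and 0.014 (current edgeR method). With 1 library left out, Ireb2 ran from -0.10 to 0.12 (pooled), from -0.00457 to 0.114 (Tyrobp-/-;NLGF against NLGF), from -0.23 to 0.20 (compound against Inpp5d+/-;NLGF) and from -0.332 to 0.0164 (compound against NLGF). Tfrc ran from -0.43 to 0.52 (compound against Inpp5d+/-;NLGF) and Aco1 from -0.0373 to 0.131 (compound against NLGF). For the Inpp5d comparisons, members at an unadjusted p of 0.05 or more were followed only as a group, a choice made after their sign changes were seen. The other sign appeared in 26 of 184 values with Tyrobp, in 9 of 184 without it and in 20 of 198 for the interaction.

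Counts over all genes moved more. For the pooled effect 1094 were called, and 86 to 2194 over the alternatives. The range was 13 to 996 around 176 for Tyrobp-/-;NLGF against NLGF, 46 to 1015 around 183 for the compound mutant against Inpp5d+/-;NLGF and 36 to 962 around 178 for it against NLGF. It was 0 to 29 around 0 for Inpp5d+/-;NLGF against NLGF, 0 to 49 around 2 for the compound mutant against Tyrobp-/-;NLGF and 0 to 36 around 0 for the interaction. No paired analysis was possible because replicate numbers follow accession order and pair no samples. The lowest count of a member in a library was 277.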
